A study of Nicrophorus vespilloides with 24 samples.

Results

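The vitellogenin contigs of the burying beetle *Nicrophorus vespilloides* are 10 loci of the head transcriptome whose best blast hit is a vitellogenin of another insect. They were taken by their locus names, and are 10 of the 11403 loci in each count table. Of these, 9 matched a vitellogenin and Locus_C852695 matched vitellogenin-6. The 10 loci carry 7 different blast hits, and no other locus of the tables carries any of the 7. Locus_C885328, Locus_C896214, Locus_C911252 and Locus_C912104 matched the same vitellogenin of the flour beetle *Tribolium castaneum*, and Locus_C912896 matched another vitellogenin of that species. Locus_C828738 matched a sawfly vitellogenin, Locus_C869378 that of the boll weevil, Locus_C882026 that of a parasitoid wasp, and Locus_C909574 vitellogenin 2 of *Nicrophorus orbicollis*, a relative of the studied beetle. Locus_C852695 matched vitellogenin-6 of a leaf-cutting ant. The reads were assembled without a genome, so several of these contigs may be pieces of the same transcript. Contig lengths are not used here, so levels are compared between libraries. Where counts of contigs are set side by side, they show how many reads a contig drew and not how abundant its transcript was.

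Vitellogenins are the large lipid-carrying proteins from which insects make egg yolk. They are made mostly in the fat body, the insect counterpart of the liver, released into the blood and taken up by growing eggs, and in many insects juvenile hormone sets how much is made. Males usually make little. In honey bees and ants vitellogenin is also known for its link to the division of labour between nursing and foraging workers.

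Each of the 24 libraries held RNA from the pooled heads of 10 beetles collected 21 days after adult emergence with 2 libraries in each of 12 groups. The groups combined sex, parenting type (uniparental, tending a brood alone, or biparental, with a mate) and behavioural state. Controls had mated and had no further social contact, caring beetles were actively parenting, and post-caring beetles had finished. Each parenting type had its own control and post-caring groups. The labels call the tissue pooled brains, whereas the study's methods describe whole heads that included fat body and connective tissue. Library totals ranged from 14647691 to 23906173 counts, with a median of 17535117. Levels are given as CPM, the counts of a locus relative to the library total after scaling by edgeR's TMM factor. All 10 contigs passed the filter on low counts, as did 9648 loci in all. A locus was called where edgeR's quasi-likelihood test, fitted to all 24 libraries with a mean for each group, gave a Benjamini-Hochberg adjusted p under 0.05 over all loci of the comparison.

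Markers of fat body and of the eye were present. Apolipophorin-III (Locus_C882058), a lipid carrier of the fat body and blood, ranged from 399.1 to 3222 CPM. Rhodopsin (Locus_C909800), the light receptor of the eye, ranged from 315.3 to 5558 CPM. The other markers of nervous tissue and eye were far lower. Locus_C894382 ranged from 12.08 to 54.52 CPM and Locus_79989 from 0.711 to 12.57 CPM. Locus_C890046, a synaptic vesicle protein, had 0 to 9 counts and was too rare to test. The storage protein arylphorin (Locus_3250) ranged from 0.7094 to 5203 CPM. Hexamerin 3 (Locus_56290) and hexamerin 4 (Locus_78404), storage proteins of the fat body, were at 0 counts in 6 and 7 of the 24 libraries. Because the tissue was bulk, fewer vitellogenin-making cells and less vitellogenin RNA per cell cannot be told apart in any of the values below.

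A male library stood apart and is described before the comparisons. The 9 vitellogenin contigs together reached 6573 CPM in replicate 1 of the uniparental male controls and 157.8 CPM in replicate 2. Replicate 1 was therefore 41.7 times replicate 2 and 41.1 times the mean of the 11 other male libraries. In the 5 other male groups the larger replicate was 1.61 to 4.2 times the smaller, and in the 6 female groups 1.02 to 1.35 times. Single contigs were 32.3 to 60.0 times higher in replicate 1 than in replicate 2, and vitellogenin-6 was not among them, with a ratio of 0.552. Of 8640 loci with at least 1 CPM in either library, only 2 besides the 9 contigs were more than 10 times higher in replicate 1. These were Locus_C909762, a hypothetical protein, and Locus_C857706, similar to lysosomal acid lipase. They are also the only loci outside the vitellogenins with at least 1 CPM in every female library and a geometric mean at least 16 times higher in females than in males (0.05 CPM added). The fat body marker sum went the other way, with 1240 CPM in replicate 1 and 4510 CPM in replicate 2. What set replicate 1 apart was not tested. The calls and correlations that changed without it are given both ways.

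The vitellogenin contigs took a large share of the counts of female heads. In biparental female controls the 9 contigs took 35.3% and 39.4% of all counts in the 2 libraries, and in uniparental female controls 21.9% and 22.1%. In caring females the share was 8.01% and 9.16% with a mate present and 5.58% and 5.42% without. In post-caring females it was 17.9% and 21.8% when biparental, and 17.3% in each uniparental library. Caring libraries were the lowest of their parenting type, and the 3 behavioural states did not overlap within either type.

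In CPM the summed level was 523000 ± 90000 (SD, n = 2) in biparental female controls, 79900 ± 6560 in caring females and 202000 ± 42200 in post-caring females. The corresponding uniparental means were 243000 ± 28800, 37600 ± 568 and 149000 ± 6860 CPM. Among females, uniparental controls (222300 and 263000 CPM) and biparental post-caring females (172500 and 232100 CPM) overlapped, whereas every other neighbouring pair of groups in the order of means was separate. Male levels were lower by orders of magnitude. The male group means were 3370 ± 4540 CPM in uniparental controls, 428 ± 281 in biparental controls, 144 ± 125 in caring biparental males, 94.6 ± 78.3 in post-caring biparental males, 90.3 ± 41.5 in post-caring uniparental males and 44.6 ± 14.7 in caring uniparental males. Each male group overlapped the next in this order, apart from the last pair.

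**Figure D1:**
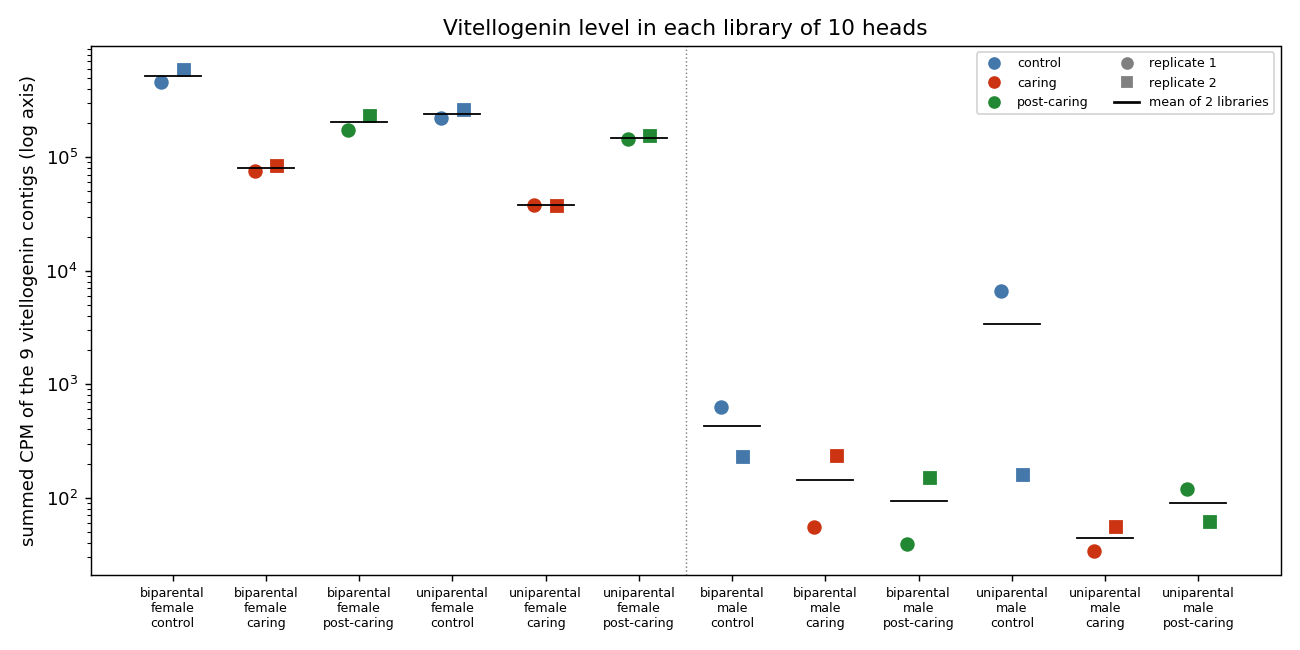
Summed CPM of the 9 vitellogenin contigs (log axis) in each library, by group, with circles for replicate 1, squares for replicate 2 and a line at the mean of the 2 libraries. Female libraries lie between 37170 and 586900 CPM with the caring groups lowest, and 11 of 12 male libraries lie between 34.24 and 626.3 CPM, with uniparental male control replicate 1 at 6573 CPM.

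Caring females were compared with control females of the same parenting type to ask how vitellogenin differed during care. The control mean was 6.55 times the caring mean in biparental females and 6.46 times in uniparental females. Locus_C911252, which took more counts than any other contig in every female library, had 170200 and 206400 CPM in biparental control libraries against 30270 and 33120 CPM in caring libraries. In uniparental females it had 83730 and 100200 CPM in controls against 13870 and 14330 CPM during care. The lowest control library was above the highest caring library by a wide margin in both types, as it was for the 8 other contigs.

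The log2 fold change of the 9 contigs had a median of -2.97 in biparental females, with a range from -3.3 to -2.34, beside a median of -0.02 over all loci. In uniparental females the median was -2.77, with a range from -2.93 to -2.28, beside -0.01 over all loci. In the fit of all 24 libraries 1 of the 9 contigs, Locus_C828738, was called in each type, with adjusted p-values from edgeR of 0.0357 and 0.0345. The adjusted p-values of the other contigs reached 0.151 in biparental and 0.162 in uniparental females. Over all loci, 2.92% were called lower in caring biparental females and 7.55% in caring uniparental females. All 9 contigs had an unadjusted p under 0.05 in both comparisons. The contigs were named from loci that the study called in these libraries. Their calls during care, in either sex, are therefore not independent evidence.

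These calls depended on the male library that stood apart, which enters the shared estimate of the spread although it belongs to neither comparison. Without it, all 9 contigs were lower in caring females of both types, with edgeR adjusted p-values from 0.000276 to 0.0305 in biparental and from 0.000217 to 0.0248 in uniparental females. The medians then were -2.99 and -2.77, so the size of the difference was nearly the same. Over all loci that fit called 7.58% and 10.5% in the 2 comparisons, in either direction. With all male libraries kept, the call of Locus_C828738 was lost in both types when any library of the comparison was left out. The median of the 9 contigs then ranged from -3.3 to -2.7 in biparental and from -2.9 to -2.64 in uniparental females.

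The size of the difference also depended on the scaling. As a percent of library counts, the control mean was 4.35 times the caring mean in biparental females and 3.99 times in uniparental females. Relative to the counts of all other loci the ratios were 6.37 and 4.83, and with library sizes and TMM factors taken from the other loci alone they were 6.48 and 6.36. Caring libraries were lower under each of these scalings.

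Marker levels differed alongside. The markers too were named from loci that the study called in these libraries. Their differences with care, here and below, are therefore not independent evidence. The summed CPM of the 4 fat body markers was 2190 to 2770 in biparental female controls and 1310 to 2190 in caring biparental females. In uniparental females it was 1220 to 3220 in controls and 839 to 888 during care. Arylphorin is part of this sum and was itself called lower by edgeR in caring females of both types, with its values given below. The sum of the 3 tested markers of nervous tissue and eye was 560 to 1900 CPM in biparental female controls and 867 to 1640 CPM in caring biparental females. In uniparental females it was 746 to 1630 CPM in controls and 4430 to 5290 CPM during care, most of it rhodopsin. The highest caring and the lowest control value of the fat body sum were both 2190 CPM in biparental females, and the groups were apart in uniparental females, and the part of tissue make-up in the vitellogenin difference was not tested.

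Post-caring females were compared with controls and with caring females to ask whether the level recovered. The post-caring mean was 38.7% of the control mean in biparental females, up from 15.3% during care, and 61.2% in uniparental females, up from 15.5%. The post-caring mean was thus 2.53 times the caring mean with a mate and 3.95 times without. Locus_C911252 had 63950 and 96170 CPM in post-caring biparental females and 48690 and 57950 CPM in post-caring uniparental females. Every post-caring female library lay above the caring libraries and below the control libraries of its type. The fat body marker sum was also higher after care than during it, at 2270 to 3230 CPM against 1310 to 2190 CPM in biparental and 1600 to 1640 CPM against 839 to 888 CPM in uniparental females. The nervous tissue and eye sum was 1900 to 3370 CPM after care and 4430 to 5290 CPM during care in uniparental females, and 466 to 4340 CPM against 867 to 1640 CPM in biparental females. The part of these markers in the recovery was not tested.

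The median log2 fold change of post-caring females over caring females was 1.34 (1.11 to 1.44) when biparental and 2.16 (1.73 to 2.31) when uniparental. None of the 9 contigs was called by edgeR in either comparison, with background shares of 2.94% and 8.34% of all loci. At an unadjusted p under 0.05 there were 0 contigs in biparental and 6 in uniparental females. Without the male library that stood apart, 1 contig was called in biparental and 7 in uniparental females, with 2.64% and 8.18% of all loci called. DESeq2 called 0 of the 10 contigs in biparental and 1 in uniparental females.

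Against controls, post-caring biparental females had a median of -1.63 (-2 to -1.05) and post-caring uniparental females one of -0.62 (-0.79 to -0.55). None of the contigs was called by edgeR, and the lowest adjusted p-values were 0.32 and 0.998. Few loci of any kind were called in these comparisons, 0% in biparental and 0.0207% in uniparental females. No contig had an unadjusted p under 0.05 in either. The larger recovery of uniparental females was tested as a difference of the post-caring change, uniparental minus biparental. Its median was 1.03 (0.43 to 1.44) on the log2 scale with standard errors of 1.12 to 1.46, and the adjusted p-values of 0.829 to 0.96 do not separate the types. As a percent of library counts, the post-caring mean was 53.1% of control in biparental and 78.8% in uniparental females.

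**Figure D2:**
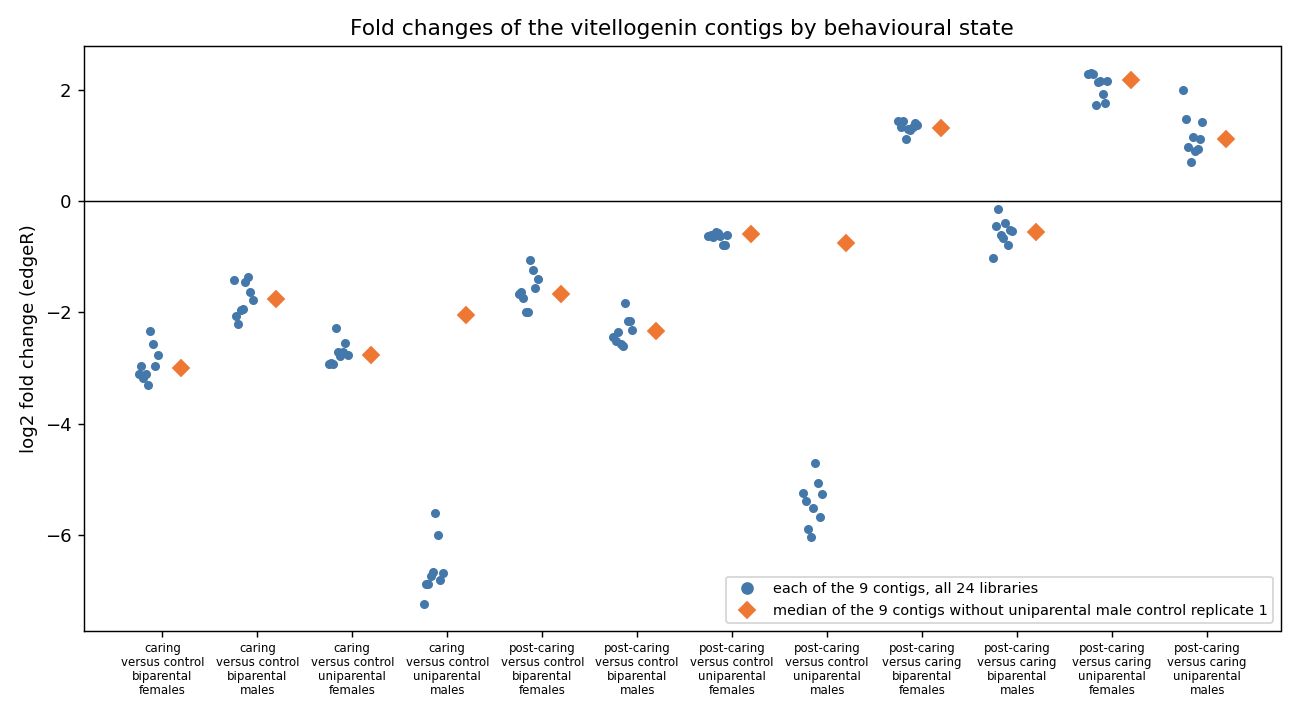
Log2 fold change (edgeR) of each of the 9 vitellogenin contigs in the 12 comparisons of behavioural state, as blue points from the fit of 24 libraries, with an orange diamond at the median of the 9 without uniparental male control replicate 1. The female medians are nearly the same with and without that library, whereas in uniparental males the caring median moves from -6.73 to -2.05 and the post-caring median from -5.4 to -0.76.

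Male libraries held a trace of vitellogenin, and the origin of this trace was not tested. Apart from the library described above, the summed level was between 536 and 8068 counts in a library, or 0.00363% to 0.0539% of its counts. Relative to the female mean of the same parenting type and state, those 11 male libraries were at 0.0194% to 0.291%, with a median of 0.0741%. The uniparental male control library that stood apart was at 2.71%. All 9 contigs had counts in every male library, although Locus_C828738, the contig with the fewest, had as few as 3. Locus_C911252 had 215 to 2877 counts in the 11 libraries.

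In biparental males the trace varied as much within groups as between some of them. The summed level was 626.3 and 229.4 CPM in controls, 55.33 and 232.4 CPM in caring males and 39.24 and 150.0 CPM in post-caring males. Controls and caring males overlapped, controls and post-caring males did not, and the caring mean was 33.6% and the post-caring mean 22.1% of the control mean. The median log2 fold change of the 9 contigs was -1.78 for caring and -2.35 for post-caring males over controls, and -0.54 for post-caring over caring males. The edgeR test called 0 of the 9 in each, with adjusted p-values of at least 0.645, 0.391 and 0.842. At an unadjusted p under 0.05 there were 0, 5 and 0 contigs, and over all loci 0.0207%, 0.0104% and 0% were called. Single libraries moved these medians by far more than in females. Over caring against controls they ran from -3.33 without caring replicate 2 to -1.03 without caring replicate 1, and from -2.29 without control replicate 2 to -0.89 without control replicate 1. Over post-caring against controls they ran from -3.66 without post-caring replicate 2 to -1.68 without post-caring replicate 1, and were -1.52 without control replicate 1 and -2.84 without control replicate 2. For post-caring against caring males the sign itself changed, with 0.99 without caring replicate 2 and 0.1 without post-caring replicate 1, against -1.28 and -1.92 without the other replicate of each group. The fat body marker sum was 2960 to 6910 CPM in biparental male controls, 1470 to 1700 CPM in caring and 2030 to 2310 CPM in post-caring males, with no overlap, and its part in the vitellogenin values was not tested.

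In uniparental males the comparison with controls rested on the library that stood apart. Control libraries had 6573 and 157.8 CPM, caring libraries 34.24 and 54.99 CPM, and post-caring libraries 119.7 and 60.96 CPM. Both caring libraries were below both controls, and the caring mean was 1.33% and the post-caring mean 2.68% of the control mean. All 9 contigs were called lower in caring males by edgeR, with a median log2 fold change of -6.73 (-7.24 to -5.6), adjusted p-values from 0.00513 to 0.0101, and 2.82% of all loci called lower. Without control replicate 1 the median was -2.05, none of the 9 was called (adjusted p-values from 0.178), and 0.762% of all loci were called. Against control replicate 2 alone the caring mean was 28.3% and the post-caring mean 57.2%.

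The same held for post-caring uniparental males. Their median log2 fold change over controls was -5.4, all 9 contigs had an unadjusted p under 0.05 and none was called by edgeR (adjusted p-values from 0.109 to 0.111), with 0% of all loci called. Without control replicate 1 the median was -0.76 and 0% of all loci were called. DESeq2 and the likelihood ratio test each called 9 of the 10 contigs with that library included. Post-caring over caring males had a median of 1.12, none of the 9 was called, none had an unadjusted p under 0.05, and 3.63% of all loci were called. The fat body marker sum was 1240 to 4510 CPM in uniparental male controls, 420 to 549 CPM in caring and 1310 to 1330 CPM in post-caring uniparental males, and its part in these values was not tested.

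Females and males of the same type and state were compared to measure the sex difference. All 9 contigs were called higher in females in each of the 6 comparisons. In uniparental controls this rested on the shared spread, since a fit of the 4 libraries of that comparison alone called 0 contigs. In biparental beetles the median log2 fold change was 10.27 in controls, 9.06 during care and 10.94 after care, with 2.82%, 5.17% and 3.79% of all loci called higher in females. In uniparental beetles it was 6.11 in controls, 10.1 during care and 10.84 after care, with 0.715%, 8.14% and 1.62% of all loci called higher in females. The edgeR adjusted p-values of the contigs were at most 0.0233 in uniparental controls and at most 0.00109 in the other comparisons. Without the male library that stood apart, the median in uniparental controls was 10.56, within the span of the other comparisons. As a fold, the median ran from 533 during biparental care to 1970 after it, leaving uniparental controls aside. Single male libraries moved these medians by more than 1.5 times in several groups. On the log2 scale biparental controls had 9.72 without male replicate 2 and 11.16 without male replicate 1, caring biparental beetles 8.34 without male replicate 1 and 10.4 without male replicate 2, and post-caring biparental beetles 10.21 and 12.37 without the same. Post-caring uniparental beetles had 11.51 without male replicate 1, and uniparental controls 5.13 without male replicate 2.

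The caring change was compared directly between the sexes and between the parenting types. The female change minus the male change had a median of -1.13 in biparental beetles and 3.94 in uniparental beetles, and 0 contigs were called in either, beside 0.0311% and 0.0207% of all loci. The uniparental change minus the biparental change had a median of 0.19 (-0.45 to 0.82) in females, with standard errors of 1.12 to 1.46, 0 contigs called and 1.61% of all loci called. In males it was -4.77 (-5.81 to -4.15), with 9 contigs at an unadjusted p under 0.05, 0 called by edgeR and 0% of all loci called. DESeq2 called 4 of the 10 contigs in that comparison. Without uniparental male control replicate 1 the male value was -0.24 and the uniparental sex difference turned to -0.51. The biparental sex difference turned to 0.26 without caring male replicate 2, and the female difference between types to -0.2 without biparental female control replicate 2. At an unadjusted p under 0.05 the other differences held 0 contigs in females, 0 in biparental beetles and 8 in uniparental beetles.

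Controls of the 2 parenting types were also compared. The parenting types differed at many loci, so that a difference between them cannot be told apart from other differences between the 2 sets of libraries. Among female controls 37.3% of all loci were called, and among male controls 22.7% were called higher in uniparental beetles. The summed vitellogenin level was higher in both biparental female control libraries (459600 and 586900 CPM) than in the uniparental ones (222300 and 263000 CPM), with a median log2 fold change of -1.28 (-1.78 to -0.63). No contig was called by edgeR, and none had an unadjusted p under 0.05. Without the male library that stood apart 4 contigs were called lower in uniparental female controls, beside 36% of all loci. In male controls the median was 2.97 and 7 of the 9 contigs were called higher in uniparental males. Without replicate 1 the direction turned, with a median of -1.72, 1 contig called and 31.8% of all loci called.

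The 9 contigs moved together. Over the 12 female libraries, Pearson correlations of log2 CPM between contigs lay between 0.948 and 0.999 over 36 pairs, with a median of 0.985. Over the 12 male libraries they lay between 0.92 and 0.997, and over the 11 without the library that stood apart between 0.832 and 0.994. The contigs share the same libraries and scaling and may share a transcript, so these values are a description. In females the log2 CPM of a contig ranged over 3.64 to 5.11 units, whereas the log2 of its share of the 9-contig total ranged over only 0.29 to 1.13 units. The narrowest share was that of Locus_C911252, which made up 33.9% to 41.4% of the total in every female library.

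Some shares nevertheless differed between groups. Locus_C882026, the contig with the parasitoid wasp hit, made up 2.68% to 4.30% of the total in biparental females and 1.97% to 2.61% in uniparental females. Locus_C869378, the contig with the boll weevil hit, made up 1.82% to 2.66% in biparental and 1.33% to 1.8% in uniparental females. The ranges of the types did not overlap for either contig. The parenting type cannot be told apart from other differences between the library sets. In biparental females the share of Locus_C909574, the contig that matched vitellogenin 2, was 14.3% and 13.8% in controls and 19.8% and 16.7% during care. In uniparental females it was 19.5% in each control library and 19.1% and 17.4% during care. The share of Locus_C912104 went the other way in biparental females, from 23.2% and 22.1% in controls to 17.4% and 20.2% during care. In uniparental females Locus_C912104 had 19.1% and 19.7% in controls and 20.8% and 22.0% during care, so neither contig kept its direction between the types. No test was applied to shares.

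The mix of contigs in the library that stood apart was set beside that of female controls. In uniparental male control replicate 1, Locus_C909574 made up 15.1% and Locus_C912104 23.6% of the vitellogenin counts, from 129427 counts. Uniparental female controls had 19.5% and 19.1% to 19.7% for these contigs, and biparental female controls 13.8% to 14.3% and 22.1% to 23.2%. In this male library the share of Locus_C882026 was 2.72%, against 2.28% to 2.52% in uniparental and 3.18% to 4.30% in biparental female controls. None of these 3 shares fell within the range of either set of female controls, each of which held 2 libraries. That of Locus_C912896 (12.3%) did not either. The shares of Locus_C828738 (0.814%), Locus_C869378 (1.65%) and Locus_C896214 (2.88%) lay within the range of uniparental female controls. Those of Locus_C885328 (4.32%) and Locus_C911252 (36.6%) lay within the range of biparental female controls. Male shares from low counts were more scattered, with Locus_C909574 at 27.2% and Locus_C912104 at 13.5% in the caring uniparental male library of 1395 vitellogenin counts.

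**Figure D3:**
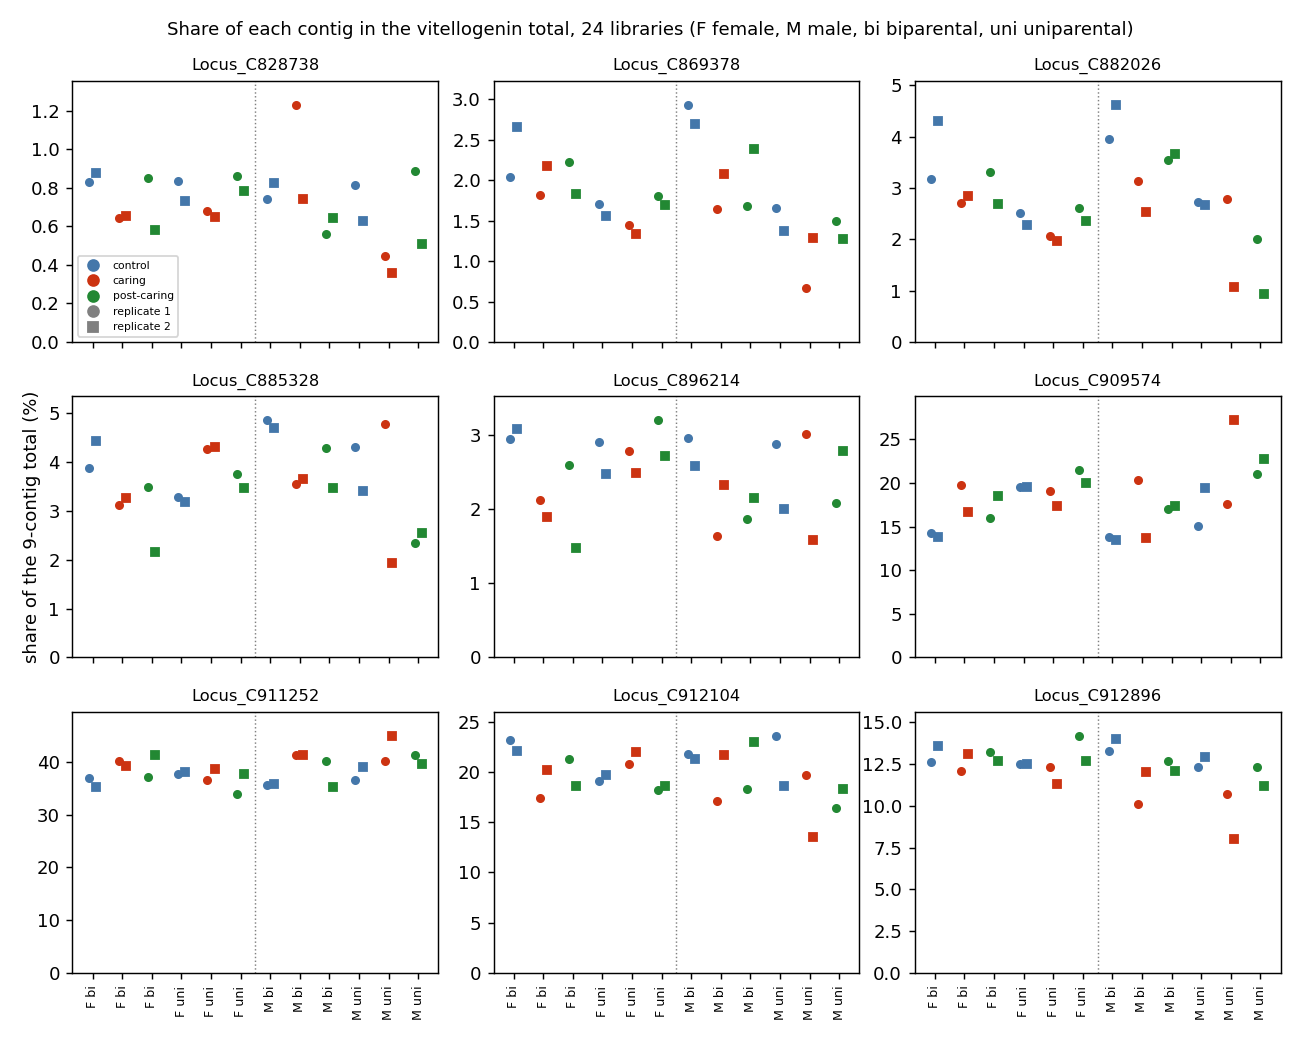
Share (%) of each of the 9 vitellogenin contigs in their summed CPM in the 24 libraries, with a panel for each contig and a vertical axis that starts at 0. Colours give the behavioural state, circles replicate 1 and squares replicate 2, and the order on the horizontal axis is females then males with biparental before uniparental. Locus_C911252 stays between 33.9% and 41.4% in females, and the female points of Locus_C882026 lie between 2.68% and 4.30% when biparental and between 1.97% and 2.61% when uniparental.

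Vitellogenin-6 (Locus_C852695) followed a different course from the other 9 contigs. It was far less counted, at 191 to 3872 counts in a female library and 76 to 789 in the 11 other male libraries. In females it had 38.18 and 15.67 CPM in biparental controls, 38.80 and 66.79 CPM during care and 28.31 and 21.94 CPM after care. In uniparental females it had 42.57 and 51.90 CPM in controls, 102.0 and 124.8 CPM during care and 50.60 and 42.00 CPM after care. Uniparental caring females were therefore above all other groups and did not overlap them, while the lower caring biparental library was barely above the higher control library.

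Vitellogenin-6 rose during care in uniparental females, with a log2 fold change of 1.27 (SE 0.377, edgeR adjusted p = 0.0388), and was lower again after care, at -1.29 against caring females (adjusted p = 0.0424). Both calls were lost when any library of the groups compared was left out (adjusted p-values of 0.104 to 0.202 and 0.116 to 0.289), with values of 1.11 to 1.44 and -1.43 to -1.13. In biparental females the change during care was 0.97 (SE 0.385, edgeR adjusted p = 0.132). Leaving out 1 library of these groups moved it between 0.49 and 1.74, a span that takes in the uniparental value of 1.27. The direction in uniparental females was opposite to that of the 9 vitellogenin contigs in the same libraries.

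In males vitellogenin-6 had 10.40 and 11.86 CPM in biparental controls, 5.737 and 11.75 CPM in caring males and 21.60 and 23.61 CPM in post-caring males. In uniparental males it had 17.57 and 31.85 CPM in controls, 19.01 and 31.10 CPM during care and 18.65 and 21.85 CPM after care. The uniparental male states overlapped one another. It was higher in females than in males during care, by 2.59 on the log2 scale in biparental and 2.18 in uniparental beetles (edgeR adjusted p = 0.00105 in each). In controls the sex difference was 1.28 in biparental beetles (adjusted p = 0.0652) and 0.94 in uniparental beetles (adjusted p = 0.28). Vitellogenin-6 was also higher in uniparental than in biparental male controls, by 1.15 (adjusted p = 0.0321), in a comparison where 22.7% of all loci were called higher. The value was 1.52 without uniparental male control replicate 1, where the call stayed, and the call was lost without any of the 3 other libraries, with 0.65 without replicate 2 and adjusted p-values of up to 0.313.

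**Figure D4:**
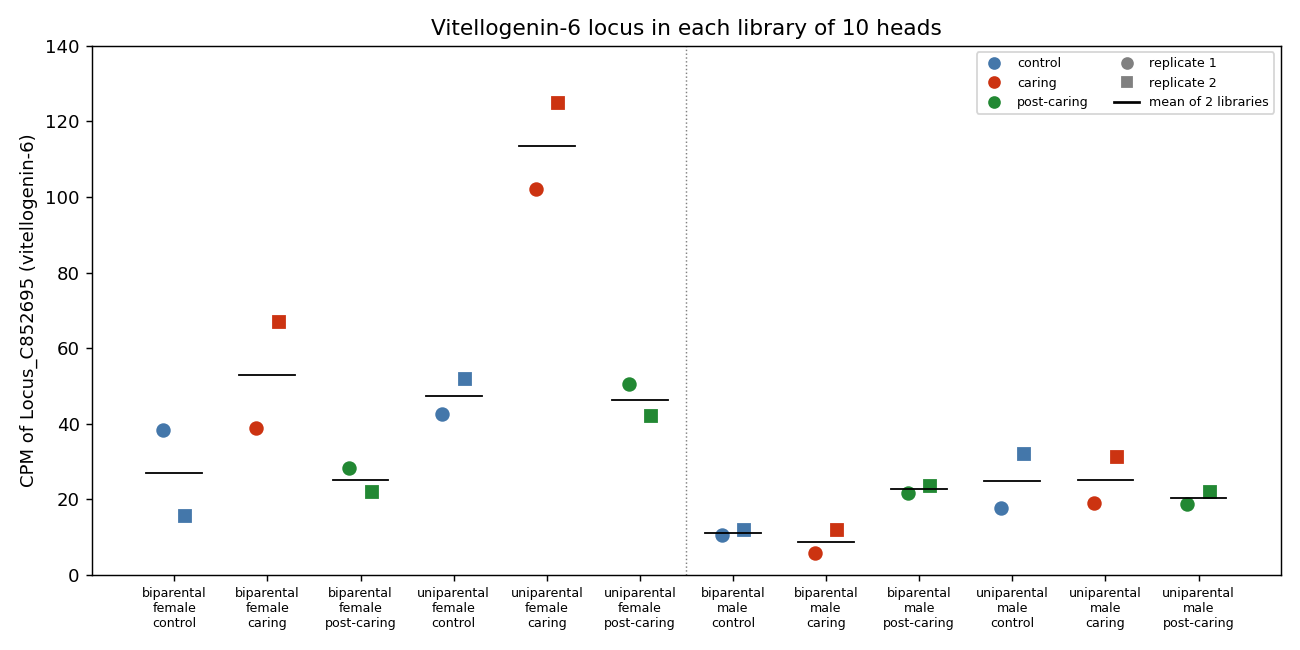
CPM of the vitellogenin-6 contig, Locus_C852695, in each library, by group, on a linear axis that starts at 0, with circles for replicate 1, squares for replicate 2 and a line at the mean of the 2 libraries. The caring uniparental female libraries are the highest, at 102.0 and 124.8 CPM, and male libraries lie between 5.737 and 31.85 CPM.

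The loci most like vitellogenin were sought by the Pearson correlation of log2 CPM with the log2 summed level of the 9 contigs over the 24 libraries. The first was Locus_C909762, with 0.999 over all libraries, 0.989 within the 12 female and 0.995 within the 12 male libraries. The second was Locus_C857706, the contig similar to lysosomal acid lipase, an enzyme that splits stored lipids, with 0.992, 0.988 and 0.93. Over the 11 male libraries without uniparental control replicate 1, these were 0.989 for Locus_C909762 and 0.78 for Locus_C857706. Then followed Locus_80797 (0.946, 0.51 and 0.343), Locus_53748 (0.938, 0.755 and 0.428) and Locus_1200, similar to the transcription factor traffic jam (0.934, 0.823 and 0.525). The correlation over all 24 libraries mostly reflects the sex difference, and among these 5 loci only Locus_C909762 stayed above 0.9 within both sexes with and without that library.

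The vitellogenin counts were 7.99 to 12.7 times those of Locus_C909762 in females, with a median of 10.5. In males the ratio was 7.8 to 16, with a median of 10.24, so the ratio spanned similar values although the levels differed by orders of magnitude. The vitellogenin counts were 72.7 to 136 times those of Locus_C857706 in females and 8.0 to 96.4 times in males, where the highest ratio was that of the library that stood apart. Locus_C909762 had 797.8 CPM in that library and 14.41 CPM in the other uniparental male control. In caring females Locus_C857706 was called lower by edgeR, with -2.62 in biparental (adjusted p = 0.0414) and -2.97 in uniparental females (adjusted p = 0.0177). Locus_C909762 had -3.12 and -2.43 in the same comparisons and was not called (adjusted p = 0.0904 and 0.173). Without the male library that stood apart, both loci were called lower in both female comparisons, Locus_C857706 with adjusted p = 0.00104 and 0.000291 and Locus_C909762 with adjusted p = 0.0108 and 0.0237. Locus_1200 was called lower in both, with 38.69 and 26.17 CPM in biparental female controls against 7.76 and 10.66 CPM during care, and 26.46 and 35.47 CPM in uniparental female controls against 6.414 and 7.126 CPM during care.

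**Figure D5:**
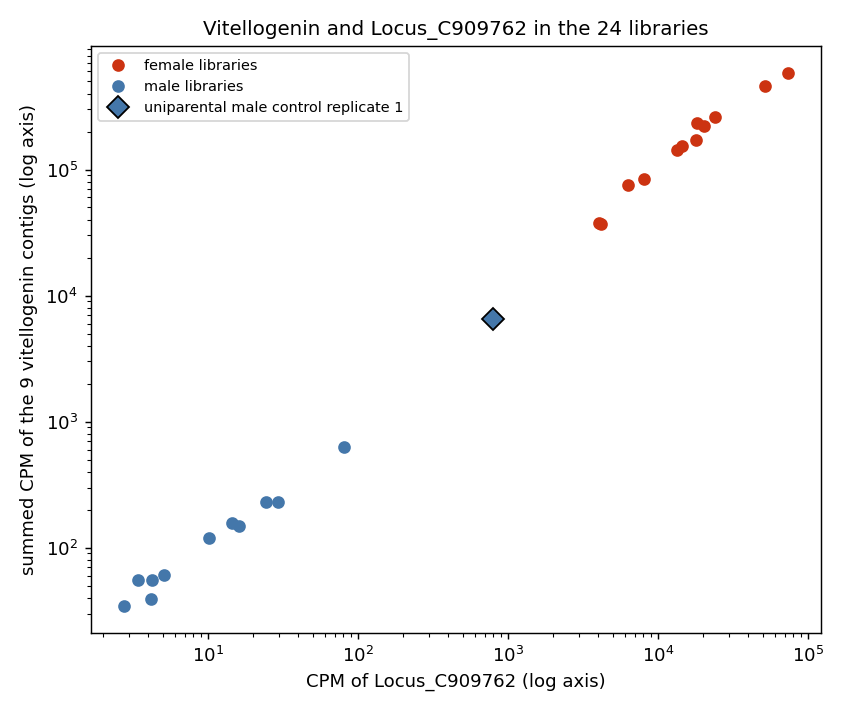
Summed CPM of the 9 vitellogenin contigs against the CPM of Locus_C909762 in the 24 libraries, both on log axes, with females in red, males in blue and uniparental male control replicate 1 as an outlined diamond. The points of both sexes fall along 1 line, with a vitellogenin to Locus_C909762 count ratio of 7.8 to 16 in males and 7.99 to 12.7 in females.

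A list of 11 loci of the hormones, storage proteins and carriers known to act with vitellogenin was followed through the same comparisons. The list was drawn from loci that the study called in these libraries, so its changes during care are not independent evidence. Of the 10 tested, 1 was called higher and 2 lower in caring biparental females, where 5.01% of all loci were called higher and 2.92% lower, and the list's median log2 fold change was -0.91. In caring uniparental females 2 were higher and 4 lower, beside 3.61% and 7.55% of all loci, with a median of -1.52. In caring uniparental males 1 was higher and 1 lower, beside 2.18% and 2.82%, with a median of -0.6, and in caring biparental males 0 were called, with a median of -0.86. Without the male library that stood apart, 3 were called lower in caring biparental females, where the takeout-like contig Locus_3293 was added, and in caring uniparental males 0 were called higher and 1 lower. None of the 10 was called in any post-caring group against its controls, in which at most 0.0207% of all loci were called.

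Diphosphomevalonate decarboxylase (Locus_C870674), an enzyme of the mevalonate pathway that supplies the precursors of juvenile hormone, was called higher in 3 of the caring groups. It had 30.86 and 31.46 CPM in uniparental female controls and 104.6 and 121.3 CPM during care, a log2 fold change of 1.86 (SE 0.433, edgeR adjusted p = 0.00985). The groups did not overlap. The change was 1.65 in biparental females (adjusted p = 0.0342) and 1.81 in uniparental males (adjusted p = 0.0228; 1.96 and adjusted p = 0.13 without control replicate 1), and in biparental males it was 0.58 (adjusted p = 0.776).

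Juvenile hormone esterase (Locus_71619), which breaks the hormone down, fell in caring uniparental females from 72.85 and 77.41 CPM to 26.37 and 24.57 CPM, by 1.56 on the log2 scale (adjusted p = 0.00381). In biparental females its log2 fold change was -0.93 (adjusted p = 0.0736). Juvenile hormone acid O-methyltransferase (Locus_C893690), the enzyme of a late step of hormone synthesis, was too rare to test, with 0 to 13 counts in a library. Insulin-related peptide 3 (Locus_78637) had log2 fold changes of -1.49 and -1.48 in caring biparental and uniparental females, and neither was called (adjusted p = 0.126 and 0.0665).

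Arylphorin fell in caring females with far larger scatter than vitellogenin. It had 900.8 and 154.4 CPM in biparental female controls and 7.183 and 2.331 CPM during care, and 103.6 and 1641 CPM in uniparental female controls and 0.7596 and 0.7094 CPM during care. After care it had 23.17 and 8.918 CPM in biparental and 27.29 and 61.38 CPM in uniparental females, so that it stayed below every control library. The takeout-like contig Locus_56531, of a family known in *Drosophila* to bind small lipids and to act in feeding, was called lower in both types, at 0 counts in all 4 caring female libraries and at 35 to 167 counts in the female controls. The takeout-like contig Locus_3293 was called lower in uniparental females, from 1.591 and 1.65 CPM to 0.1688 and 0.06449 CPM, and Locus_C894552 was not called in any caring comparison. Hexamerin 4 was called higher in caring uniparental females, with 5 and 96 counts during care and 0 in both controls. Hexamerin 3 was not called in any caring comparison, and apolipophorin-III was called lower in caring uniparental males alone among the 4 caring groups, by 1.19 on the log2 scale (adjusted p = 0.0171; -1.48 and adjusted p = 0.0348 without control replicate 1).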

How the data were processed

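RNA from pooled heads was sequenced in 24 libraries. The authors trimmed the reads (Trimmomatic 0.30 in the submitters' processing notes), built a de novo assembly, retained those contigs that hit an arthropod protein in blast, and mapped reads with Bowtie2. They deposited the expected counts of RSEM library by library, not normalized. Overlapping transcripts that the assembler had linked were counted as 1 locus. Reads shared by other near-identical contigs are split by RSEM, so the counts of single vitellogenin contigs are less certain than their sum.

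Expected counts were rounded and tested with edgeR 4.0.16 in R 4.3.3, with TMM scaling and filterByExpr (minimum count 10), which removed 1755 loci. The fit had 12 group means and 12 residual degrees of freedom, and p-values were adjusted within each of 24 comparisons. Fold changes used a prior count of 0.125. The log2 CPM of the loci searched for likeness, and of the pairing check, used a prior count of 2. The summed vitellogenin level and the correlations between contigs used log2 CPM without a prior count. A standard error is the size of the log2 fold change divided by the square root of F. The scripts were tested on simulated counts.

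Groups and replicate numbers follow the sample titles. For the 4 male control libraries the deposited files carry the opposite replicate number, so that uniparental male control replicate 1 is numbered 2 there, and the replicate block and pairing check rest on the titles. Nothing states how the 2 pools of a group were separated, so p-values measure the spread between pools. The members and lists were chosen with earlier results of these data known. The named genes are the 10 contigs, 11 pathway loci, the marker loci of fat body (4) and of nervous tissue and eye (4), of which Locus_C890046, a synaptic vesicle protein, was too rare to test, and the 5 loci most alike. Gene names come from a supplementary table of loci that the study called in these libraries. Alternatives were the likelihood ratio test, DESeq2 1.42.0, other scalings, no filter, a replicate block, fewer libraries and each library left out. Leaving out uniparental male control replicate 1 from comparisons that do not hold it, and fitting each sex alone, were chosen after seeing the data. Contig sequences and quantitative PCR were not used here.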

Additional observations from a re-analysis of the deposited data

How the results depend on the processing

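The counts below are of the 10 contigs called, vitellogenin-6 included. No filter on low counts, RLE normalization, unrounded counts, scaling without the 10 contigs and the replicate block left each of the 24 counts within 1.5 times, and the median of the 9 contigs kept its sign in all 24. The replicate numbers share only a number: with the block 1 contig was called in caring biparental females and 9 in caring uniparental males, and deviations of same-numbered libraries correlated between -0.34 and 0.44 over 66 pairs of groups.

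In caring biparental females the likelihood ratio test called 7 contigs, DESeq2 8, the libraries of the comparison alone 9 and the female libraries alone 9. In caring uniparental females these counts were 8, 8, 10 and 9. In caring uniparental males the libraries of the comparison alone gave 0 and the male libraries alone 4. In post-caring females against controls, the female libraries alone gave 3 when biparental. In post-caring uniparental males against controls the likelihood ratio test and DESeq2 gave 9 each. For post-caring against caring, the female libraries alone gave 8 in biparental and 9 in uniparental females, the libraries of the comparison alone 10 in uniparental females and 1 in uniparental males, and the likelihood ratio test 1 in biparental males. The sex difference of uniparental controls gave 0 with the libraries of the comparison alone. Uniparental against biparental controls gave 5 in females with their own libraries, 8 with female libraries alone, and 1 in males under each of these. DESeq2 gave 4 for the male difference between parenting types in the caring change and 2 for the uniparental difference between sexes.

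Leaving out 1 library gave 0 to 9 calls in caring biparental females, 0 to 10 in caring uniparental females, 0 to 9 in caring and in post-caring uniparental males against controls, 0 to 1 in post-caring against caring biparental females and 0 to 8 in uniparental females. It gave 0 to 4 and 0 to 9 for uniparental against biparental female and male controls, 0 to 7 for the male difference between types and 0 to 3 for the uniparental difference between sexes. Among results with called contigs, 2 reversed, both in male controls, uniparental against biparental: the median of the 9 contigs ranged from -1.72 to 3.94 and Locus_C911252 from -1.30 to 3.97, the negative values without uniparental male control replicate 1. Medians with no call also changed sign when 1 library was left out, in post-caring against caring biparental males (-1.92 to 0.99), the female minus male change in biparental (-2.1 to 0.26) and uniparental beetles (-0.51 to 4.9), and the female difference between types (-0.2 to 0.41). The other causes were not tested. Rounding moved no contig share by over 0.0097 percentage points. With 2 libraries a group, the number of libraries and not depth limits the female values, while counting noise adds to male shares.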
